A study of Mus musculus with 2 samples.

Results

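Polycomb proteins and the enzymes that add or remove methyl groups on histones were followed here in LSK cells, a bone marrow population negative for mature lineage markers and positive for Sca-1 and c-kit that contains the blood stem cells. The list held 44 genes, chosen by symbol and function. A probe belonged to a gene where its transcript identifier matched that symbol in the RefSeq table of the mouse assembly GRCm38.p6. By this rule 43 of the 44 genes had at least 1 probe, and Kmt2a had none. Together they had 63 of the 55661 probes on the array, and all named genes numbered 21360. The probes fell on 27 genes with 1 probe, 12 with 2 and 4 with 3.

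Expression was measured on 2 single-colour Agilent arrays to compare gene expression between nondiabetic mice and mice made diabetic with streptozotocin (STZ), a toxin of the insulin-producing β cells. Each array carried RNA from the LSK cells of 3 C57BL/6J mice of 1 condition, and 8.3 ng of total RNA was amplified and labelled with Cy3. The nondiabetic array held LSK cells of nondiabetic mice, and the diabetic array held those of STZ-induced diabetic mice. No transgene or deletion is named for either. The labels give female mice for both arrays, whereas the published methods describe male mice, and the age of the mice was not given in the sources used here. STZ acts on other cells besides β cells, and its own effect on marrow cells cannot be told apart from that of the diabetes. Both arrays lay on the same slide and were read in the same scan. Since each condition had 1 array of pooled mice, there was no replicate, no difference was tested, and genes are described by the size of their difference.

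Polycomb proteins work in a pair of main complexes. PRC2 places the repressive methyl mark on histone H3, and PRC1 binds chromatin, compacts it and attaches ubiquitin to histone H2A. Other methyltransferases, called writers here, add marks found at active promoters, enhancers and gene bodies, or the marks of silent heterochromatin, and lysine demethylases, called erasers, remove them. In blood stem cells these enzymes are known for the control of self-renewal, of Hox genes and of lineage choice, and several are mutated in leukemia.

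Intensities are given as the scanner software wrote them, after its own background subtraction and before scaling between arrays. Log2 ratios are diabetic over nondiabetic, after each array was scaled to its 75th percentile. A probe was taken as detected where the software marked most of its spots as well above background. Spot error was read from 237 probes with at least 5 usable spots that were detected on both arrays, where the median SD over spots of a log2 ratio was 0.13. With the probes detected on both arrays split into 3 equal groups by signal, this SD was 0.26 in the dimmest group, 0.13 in the middle group and 0.07 in the brightest group. It covers error on these arrays only and not that from mouse to mouse or from sort to sort.

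Of the 63 probes of the listed genes, 60 were detected in nondiabetic and 61 in diabetic cells, and 0 spots were saturated. Probes named to both Polycomb complexes and to nearly all listed writers and erasers thus gave signal above background in LSK cells of both conditions. Only Cbx8, a chromodomain subunit of PRC1, had no detected probe, with intensities of 2.54 in both conditions. For each gene the brightest probe, that with the highest mean log2 signal over both arrays, stands for the gene, and the further probes are given beside it.

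**Figure D1:**
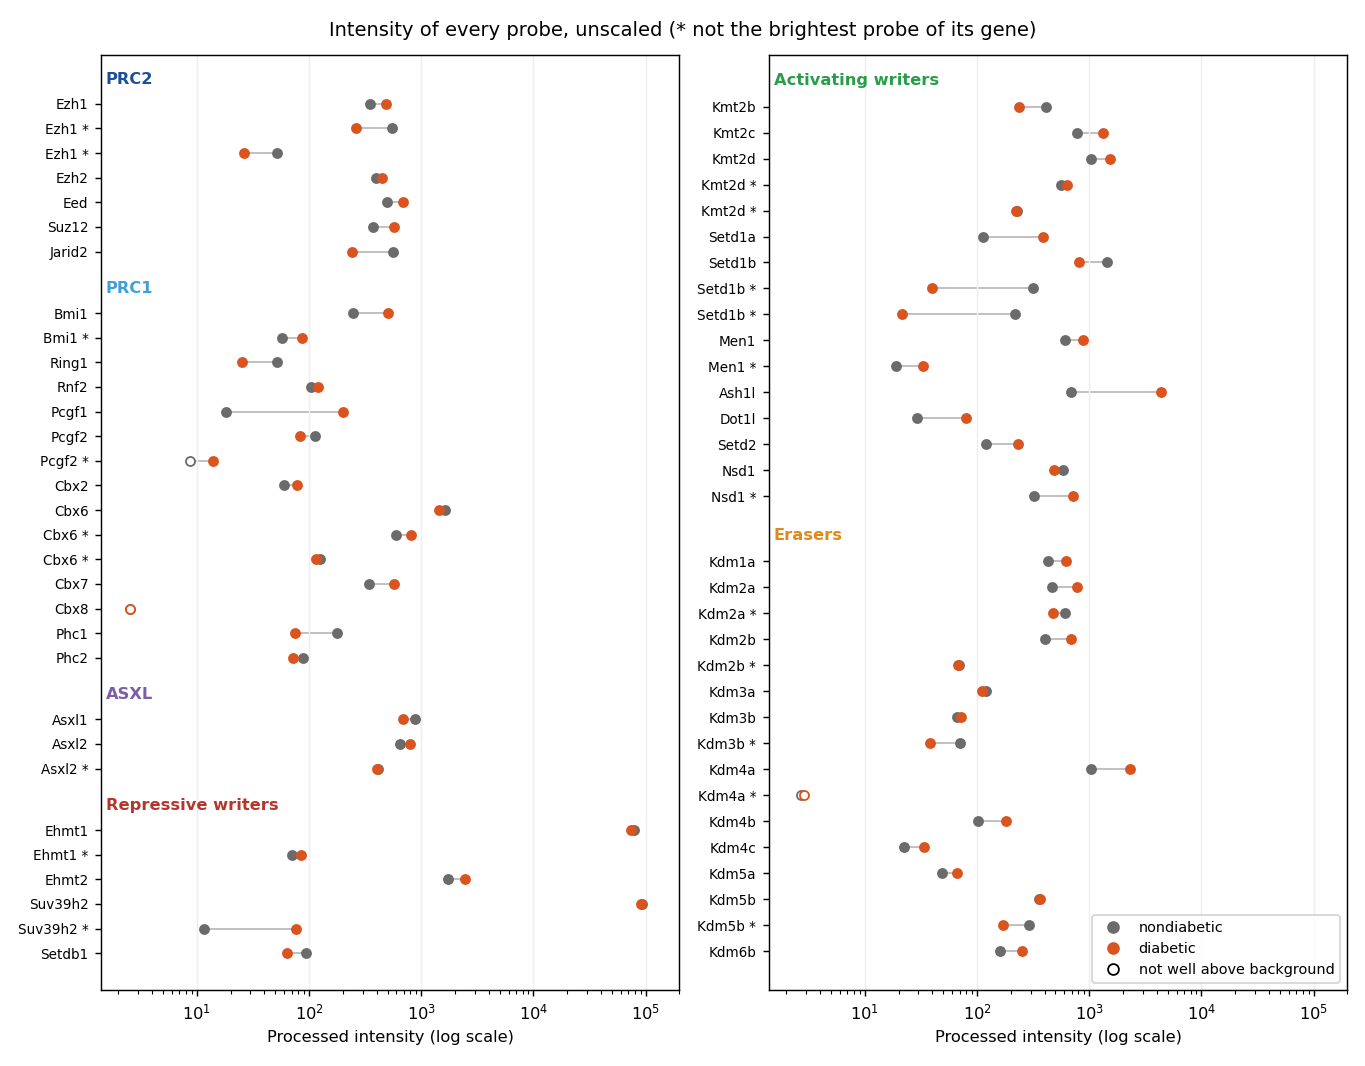
Processed intensity of every probe of the listed genes on the nondiabetic (grey) and diabetic (orange) array, 1 point per array, before scaling and on a log axis, by functional group. Open points were not well above background, as for Cbx8 at 2.54, and an asterisk marks a probe that is not the brightest of its gene. Most pairs lie close together, and the widest gaps are at Pcgf1, Ash1l and the further probes of Setd1b and Suv39h2.

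By the brightest probe, 27 of the 42 genes with a ratio were higher in diabetic LSK cells and 15 were lower. Among all named genes with a ratio or bound, 7773 of 15192 were higher, so the share of higher genes was 64.3% in the list and 51.2% on the array. The median log2 ratio was 0.35 over the listed genes and 0.02 over all named genes. The count of large differences was near that of the array. At least 2-fold higher were 5 of the 42 genes, or 11.9%, against 11.0% of all named genes. At least 2-fold lower were 3 of the 42, or 7.14%, against 10.1% of all named genes, and this count was 1 under normexp, a background correction that raises dim values by a fixed offset, where Ring1 and Phc1 lost their calls. The genes past 2-fold on the higher side were Pcgf1, Setd1a, Ash1l, Dot1l and Kdm4a, a PRC1 subunit, 3 activating writers and an eraser. Those on the lower side, Jarid2, Ring1 and Phc1, all encode Polycomb subunits, and Polycomb genes made up 17 of the 42 genes. Kdm4a was the nearest inside the 2-fold limit, with a log2 ratio of 1.04, and Setd1b the nearest outside it, with -0.94.

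Counted over single probes, 35 of the 61 with a ratio or bound were higher and 26 were lower. The 7 probes at least 2-fold higher came to 11.5%, against 11.2% of all probes, and the 8 at least 2-fold lower came to 13.1%, against 11.2% of all probes. The median over the probes of the list was 0.13 and that over all probes was -0.01, so the shift of the gene medians was smaller when further probes were counted.

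**Figure D2:**
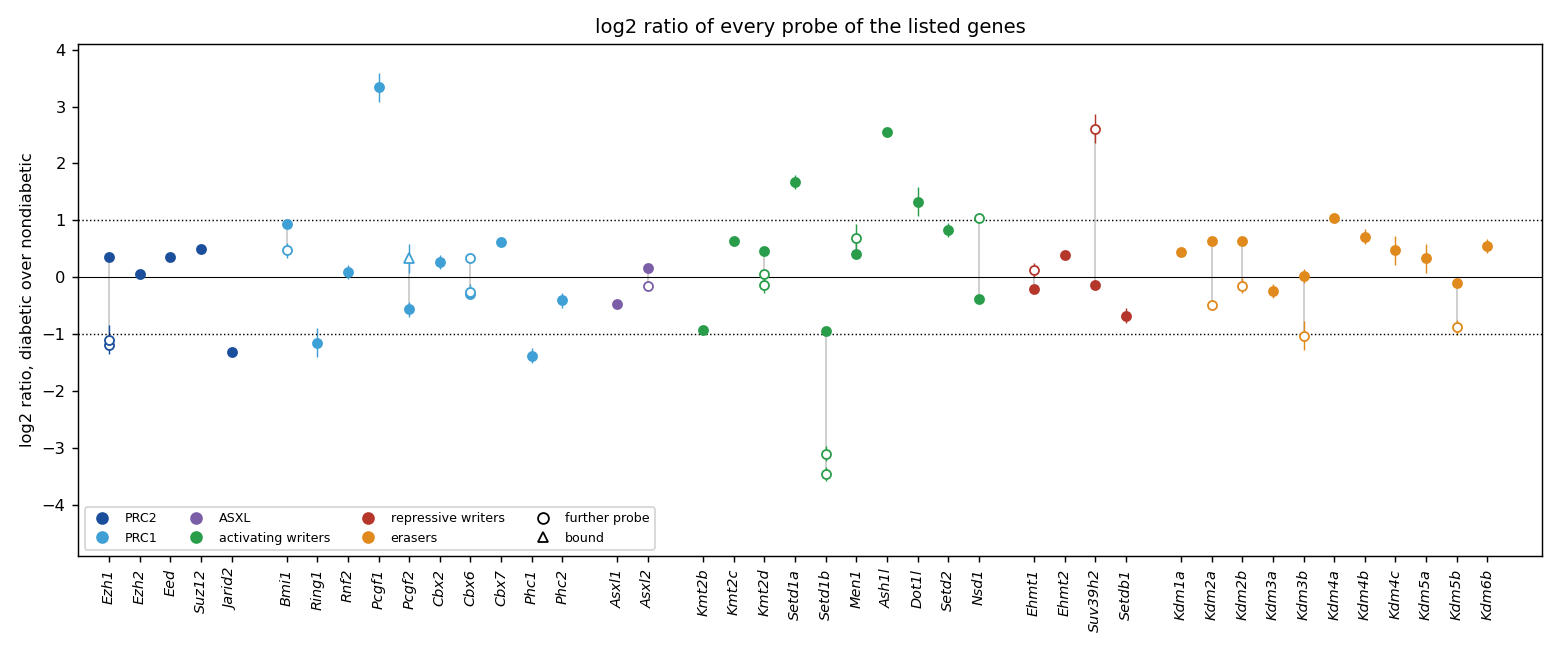
Log2 ratio (diabetic over nondiabetic) of every probe of the listed genes with a ratio or bound, with 1 array per condition. Filled points are the brightest probe of a gene, open points its further probes, the triangle a lower bound, grey lines join the probes of a gene, and bars show 1 median SD between spots for probes of similar brightness (0.07 to 0.26), not a biological error. The filled points past the dotted 2-fold lines are 5 above and 3 below, and the probes of Setd1b, Suv39h2 and Ezh1 lie far apart.

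Promoters are shown for genes among the 8 that were past 2-fold by the brightest probe. Genes past 2-fold on a further probe only, such as Setd1b and Suv39h2, are not among them. The promoters of the list were richer in CpG than those of the array's organism at large. The RefSeq promoter table of GRCm38.p6, with 250 bases before to 50 bases after each start, held 45 promoters of 33 of the 44 genes. Their median GC content was 64.3%, with a median of 28 CpG dinucleotides, against 52.7% and 7 over all 32851 promoters of the table, noncoding genes included. On both strands, the GC box GGGCGG was found in 34 of the 45 promoters, or 26 of the 33 genes, and in 35.7% of all promoters. The CCAAT box, spelled CCAAT, was found in 18 of the 45 and in 37.4% of all, the TATA box TATAAA in 1 and in 13.6% of all, and the YY1 motif AAGATGGC in 2 and in 2.75% of all. Different motifs overlapped in 0 places. In the sequences below, written 5′ to 3′ in the direction of transcription, capitals mark these motifs. The promoters of Setd1a (chr7:127777139-127777438, plus strand), Dot1l (chr10:80754953-80755252, plus strand) and Kdm4a (chr4:118179994-118180293, minus strand) belong to genes that were higher in diabetic LSK cells. Those of Jarid2 (chr13:44730524-44730823, plus strand, the first of 2 starts), Ring1 (chr17:34024631-34024930, minus strand) and Phc1 (chr6:122340178-122340477, minus strand) belong to genes that were lower. Pcgf1 and Ash1l are not shown.
Setd1a: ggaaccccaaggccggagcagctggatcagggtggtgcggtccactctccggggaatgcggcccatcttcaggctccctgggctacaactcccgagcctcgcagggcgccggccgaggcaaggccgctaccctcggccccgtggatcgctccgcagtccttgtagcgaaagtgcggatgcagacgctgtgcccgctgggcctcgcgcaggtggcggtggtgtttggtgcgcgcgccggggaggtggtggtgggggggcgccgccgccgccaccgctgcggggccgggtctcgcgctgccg
Dot1l: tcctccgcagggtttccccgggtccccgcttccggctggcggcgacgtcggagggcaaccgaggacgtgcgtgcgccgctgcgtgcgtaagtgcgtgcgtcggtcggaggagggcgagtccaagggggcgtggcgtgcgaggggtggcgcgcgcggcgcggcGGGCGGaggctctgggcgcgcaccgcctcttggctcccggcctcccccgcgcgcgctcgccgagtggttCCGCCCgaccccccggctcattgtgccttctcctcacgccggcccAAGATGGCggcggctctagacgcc
Kdm4a: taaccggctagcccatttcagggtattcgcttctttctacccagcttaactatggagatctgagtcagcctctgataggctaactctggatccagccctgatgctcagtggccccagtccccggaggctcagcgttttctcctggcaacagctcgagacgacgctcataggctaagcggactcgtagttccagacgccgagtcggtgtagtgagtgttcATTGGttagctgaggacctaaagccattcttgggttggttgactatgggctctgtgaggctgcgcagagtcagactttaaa
Jarid2: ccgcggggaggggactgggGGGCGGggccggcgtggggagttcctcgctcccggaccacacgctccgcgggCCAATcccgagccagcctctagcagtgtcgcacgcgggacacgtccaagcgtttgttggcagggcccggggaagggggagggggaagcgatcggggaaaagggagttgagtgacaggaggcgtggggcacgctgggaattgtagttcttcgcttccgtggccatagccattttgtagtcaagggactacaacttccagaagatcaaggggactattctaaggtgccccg
Ring1: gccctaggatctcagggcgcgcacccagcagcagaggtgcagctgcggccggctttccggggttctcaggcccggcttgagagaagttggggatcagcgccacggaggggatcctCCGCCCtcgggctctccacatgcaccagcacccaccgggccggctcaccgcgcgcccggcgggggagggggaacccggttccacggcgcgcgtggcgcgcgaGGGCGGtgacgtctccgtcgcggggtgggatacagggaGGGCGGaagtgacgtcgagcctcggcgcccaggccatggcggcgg
Phc1: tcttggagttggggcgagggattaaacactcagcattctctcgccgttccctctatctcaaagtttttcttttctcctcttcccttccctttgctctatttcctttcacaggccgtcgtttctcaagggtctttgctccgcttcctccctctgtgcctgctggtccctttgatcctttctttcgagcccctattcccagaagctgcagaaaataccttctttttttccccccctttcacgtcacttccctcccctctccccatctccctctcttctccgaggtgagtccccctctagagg
These 6 promoters were unlike each other. Dot1l, with 49 CpG, held 2 GC boxes and the YY1 motif, and Ring1, with 37 CpG, held 3 GC boxes. Jarid2, with 24 CpG, held 1 GC box and 1 CCAAT box, and Kdm4a, with 13 CpG, held 1 CCAAT box. Setd1a, with 35 CpG, and Phc1, with 9 CpG, held none of the 4 motifs. The 3 promoters of the higher genes and the 3 of the lower genes thus each included 1 with none of them. These matches are a description of the letters and not of bound factors.

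PRC2 was detected as a whole. Of its 5 genes, 4 were higher in diabetic LSK cells by the brightest probe and 1 was lower, with a median log2 ratio of 0.35. Beside the Ezh enzymes, the core of PRC2 holds Eed, which reads the methyl mark, and Suz12, the scaffold, while Jarid2 is an accessory subunit that guides the complex to its targets. The probe of Jarid2 (A_52_P370203) had intensities of 557 (nondiabetic) and 242 (diabetic), which is 2.50-fold lower after scaling (log2 ratio -1.32). It was the only PRC2 gene past 2-fold by its brightest probe, and its probe was in the brightest group, in which spots differed least. Suz12 (A_51_P214796) had intensities of 368 and 566, a log2 ratio of 0.50. Eed (A_55_P2039611) had intensities of 495 and 687, a log2 ratio of 0.35. Both core subunits were therefore slightly higher in diabetic cells, opposite to Jarid2.

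The catalytic subunits differed in how well their probes agreed. Ezh2, the methyltransferase that prevails in dividing cells, had 1 probe (A_55_P2041397) with intensities of 397 and 451, a log2 ratio of 0.07, about the median spot SD at this brightness. Ezh1, its counterpart in resting cells, had 3 probes of the same transcript. The brightest (A_55_P2155942) had intensities of 349 and 485, a log2 ratio of 0.36. A second (A_55_P2082869) had 548 and 261, a log2 ratio of -1.19, and the dimmest (A_55_P2017086) had 52.1 and 26.4, a log2 ratio of -1.10. The direction of Ezh1 thus depended on the probe, with 1 probe higher and 2 probes more than 2-fold lower in diabetic cells. Over all 7 PRC2 probes, 4 were higher and 3 were lower, with a median of 0.07.

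The 11 PRC1 genes showed no common direction. By the brightest probe 5 were higher, 5 were lower and Cbx8 had no ratio, and the median log2 ratio was -0.10. PRC1 pairs a RING ubiquitin ligase with a Pcgf protein, which sets the kind of complex, and adds chromodomain Cbx and Phc subunits in its canonical form. Pcgf1, which defines the variant complex with Kdm2b, had the largest ratio among the brightest probes of the list. Its probe (A_66_P121656) had intensities of 18.3 (nondiabetic) and 200.1 (diabetic), which is 10.1-fold higher after scaling (log2 ratio 3.34, and 1.62 under normexp). The nondiabetic value was above the lowest detected intensity of that array, 10.2, and the size of the ratio rests on this dim value.

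The ligases and Pcgf proteins differed among themselves. Ring1 (A_51_P455266), the first of the pair of ligases, had intensities of 51.7 and 25.2, which is 2.23-fold lower in diabetic cells (log2 ratio -1.15, and -0.42 under normexp). Rnf2 (A_51_P382253), the main ligase, had 105 and 121, a log2 ratio of 0.09, which is less than the spot SD at this brightness. Bmi1, the Pcgf protein known for the self-renewal of blood stem cells, was higher on both of its probes. Its brightest probe (A_55_P2170335) had intensities of 244 and 510 (a log2 ratio of 0.94), just short of 2-fold, and the second (A_52_P39157) had 57.5 and 86.4, a log2 ratio of 0.47. Pcgf2, its close relative, had a log2 ratio of -0.57 on the brightest probe (A_51_P317740, intensities of 113 and 82.5). The second Pcgf2 probe (A_55_P1968153) was detected in diabetic cells only, with intensities of 8.69 and 14.0, and was at least 1.26-fold higher there. The 2 probes of Pcgf2 thus point in opposite directions.

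Among the polyhomeotic subunits, which let PRC1 form larger assemblies, Phc1 (A_51_P433430) had intensities of 179 and 74.7, which is 2.60-fold lower in diabetic cells (log2 ratio -1.38, and -0.77 under normexp). Phc2 (A_55_P2027067) had 87.4 and 71.6, a log2 ratio of -0.40, so that both were lower. The Cbx subunits, which bind the methyl mark placed by PRC2, stayed within 2-fold on every detected probe. Cbx7, the main Cbx protein of blood stem cells, had the largest difference of them (A_55_P1980401, intensities of 345 and 572, log2 ratio 0.61). Cbx2 had a log2 ratio of 0.27. The 3 probes of Cbx6 had log2 ratios of -0.30, 0.33 and -0.25, with the brightest at 1627 in nondiabetic and 1435 in diabetic cells. Over all 14 PRC1 probes with a value, 8 were higher and 6 were lower.

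Asxl1 and Asxl2 are cofactors of the deubiquitinase that opposes PRC1, and Asxl1 is often mutated in myeloid disease. Asxl1 (A_55_P1994052) had intensities of 886 and 693, a log2 ratio of -0.47. The 2 probes of Asxl2 had log2 ratios of 0.17 and -0.16. Neither gene reached 2-fold on any probe. Over all 18 Polycomb genes, 10 were higher and 7 were lower, with a median of 0.09. Of the 17 with a ratio, 1 was past 2-fold on the higher side (5.88%, against 11.0% of all named genes). On the lower side 3 were past 2-fold (17.6%, against 10.1%), and Ring1 and Phc1 lost this call under normexp.

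The activating writers held 3 of the 5 genes past 2-fold on the higher side (3 of 10 genes, or 30%, against 11.0% of all named genes), and none past 2-fold on the lower side, where Setd1b (-0.94) and Kmt2b (-0.92) lay just short of it. Of the 10 genes with a probe, 7 were higher and 3 were lower, with a median log2 ratio of 0.55. Ash1l, a methyltransferase of the trithorax group that counters Polycomb at Hox genes, had the largest difference of this group by the brightest probe. Its probe (A_51_P223929) had intensities of 690.05 (nondiabetic) and 4389.5 (diabetic), which is 5.86-fold higher (log2 ratio 2.55). The probe belonged to the brightest group, in which 7.37% of all probes differed by 2-fold or more in either direction. Setd1a, an enzyme that trimethylates histone H3 at active promoters, had intensities of 113 and 389 on its probe (A_55_P1960708), which is 3.19-fold higher (log2 ratio 1.67). Dot1l, which methylates the core of histone H3 in transcribed genes and is needed in MLL-rearranged leukemia, had 29.1 and 79.0 (A_55_P2109354), which is 2.50-fold higher (log2 ratio 1.32, and 0.52 under normexp). Its probe was in the dimmest group.

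Setd1b, the close relative of Setd1a, went the other way. Its brightest probe (A_52_P468033) had intensities of 1451 and 818, a log2 ratio of -0.94. Its other probes, both of a predicted RefSeq transcript, had the largest lower values of the list. The first (A_55_P2002449) had 314 in nondiabetic and 39.7 in diabetic cells, which is 8.57-fold lower (log2 ratio -3.10), and the other (A_55_P1977741) had 217 and 21.4, which is 11.0-fold lower (log2 ratio -3.46). All 3 probes were lower in diabetic cells, and the brightest stood more than 2-fold apart from the other two, which lay close together. Whether they read different transcripts was not tested.

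The MLL family enzymes, which methylate histone H3 at promoters and enhancers, stayed within 2-fold. Kmt2b (A_55_P1978875) had intensities of 412 and 236, a log2 ratio of -0.92. Kmt2c, an enhancer methyltransferase, had 780 and 1322 (A_55_P1984123, log2 ratio 0.64). Its partner enzyme Kmt2d had log2 ratios of 0.46, 0.05 and -0.14 on its 3 probes, the brightest with 1037 and 1545. Menin, the product of Men1 and the subunit that tethers MLL proteins to Hox genes, was higher on both probes. Its brightest probe (A_55_P2143159) had 605 and 872, a log2 ratio of 0.41, and the dimmer one (A_66_P137048) had 19.0 and 33.0, a log2 ratio of 0.68.

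Setd2, which methylates histone H3 along gene bodies, was the only listed gene with many spots. Its probe (A_51_P110395) was printed 10 times and 8 spots were used. They ranged from 111.7 to 131.8 in nondiabetic cells, with a median of 117.7, and from 212 to 245 in diabetic cells, with a median of 233, so the spots of the arrays did not overlap. The mean log2 ratio over these spots was 0.83 ± 0.10 (SD between spots of 1 probe), with a lowest value of 0.63 and a highest of 0.95. These spots share 1 hybridization per condition and are not replicates of the mice. Nsd1, which adds the dimethyl mark that Setd2 extends, had probes that disagreed. The brightest (A_52_P565940) had 583 and 487, a log2 ratio of -0.38, and the other (A_55_P2016877) had 323 and 722, a log2 ratio of 1.04.

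The repressive writers, which place the marks of silent chromatin, stayed within 2-fold by their brightest probes. Of the 4 genes, 1 was higher and 3 were lower, with a median of -0.17, or 0.17 with the mean over the probes of a gene. Over all 6 probes of the group, 3 were higher and 3 were lower, with a median of -0.01. Ehmt1 (G9a-like protein) and Ehmt2 (G9a) form a heterodimer that dimethylates histone H3. Ehmt2 (A_55_P2001143) had intensities of 1721 and 2436, a log2 ratio of 0.38. The brightest probe of Ehmt1 (A_55_P2045163) had 78263 and 73947, a log2 ratio of -0.20, and only 0.17% of all probes were brighter. The other Ehmt1 probe (A_55_P2149440) had 70.9 and 84.1, a log2 ratio of 0.13. The pair thus showed no shared difference past 2-fold.

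Suv39h2, a trimethylase of pericentric heterochromatin, gave the widest disagreement in this group. Its brightest probe (A_55_P2072403) had 93316 in nondiabetic and 91689 in diabetic cells, a log2 ratio of -0.14. This probe was not saturated, and only 0.11% of all probes were brighter. The other Suv39h2 probe (A_52_P16931) had 11.5 and 76.2, which is 6.10-fold higher in diabetic cells (log2 ratio 2.61). Both probes name the same transcript, and the dim nondiabetic value lay close to the lowest detected intensity of that array, 10.2. Whether the very bright probes of Suv39h2 and Ehmt1 read these mRNAs was not tested. Setdb1, which silences endogenous retroviruses, had intensities of 94.5 and 64.2 (A_55_P1965635), a log2 ratio of -0.68.

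The erasers were mostly higher in diabetic LSK cells, by small amounts. Of the 11 genes, 9 were higher and 2 were lower, with a median of 0.48. None was past 2-fold on the lower side, against 10.1% of all named genes, and 1 was on the higher side (9.09%, against 11.0%). Kdm4a, which removes methyl groups from the marks of heterochromatin and of gene bodies, was that gene. Its brightest probe (A_52_P281209) had intensities of 1046.5 (nondiabetic) and 2329 (diabetic), a log2 ratio of 1.04. A second Kdm4a probe (A_55_P1982585), of another transcript, was detected on neither array, with 2.68 and 2.88. Its relatives Kdm4b (A_55_P2028064, intensities of 101 and 180.1) and Kdm4c (A_55_P2053206, 22.2 and 33.5) had log2 ratios of 0.71 and 0.48, so all 3 Kdm4 genes were higher.

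Kdm1a, known as LSD1, removes methyl groups at enhancers within the CoREST complex and is needed for blood cell maturation. Its probe (A_55_P1993820) had intensities of 427 and 627, a log2 ratio of 0.44. Kdm6b, which erases the mark of PRC2, had 159 and 253 (A_55_P2030080), a log2 ratio of 0.55. The erasers of Polycomb and enhancer marks thus lay near the median of their group. Kdm2b, which brings PRC1 with Pcgf1 to CpG islands, had a log2 ratio of 0.64 on its brightest probe (A_55_P2065149, 407 and 688) and -0.15 on the other (A_55_P2065154, 69.1 and 67.8).

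The remaining erasers stayed within 2-fold by the brightest probe, and some had probes that differed. Kdm2a, the relative of Kdm2b, had a log2 ratio of 0.64 on the brightest probe (A_55_P1971278, intensities of 464 and 784) and -0.48 on the other (A_52_P92557, 608 and 472). Kdm3b, a demethylase of the mark placed by Ehmt2, had 0.03 on the brightest probe (A_55_P1970665, 65.7 and 72.6) and -1.02 on the other (A_55_P1970660, 71.1 and 37.9), and its relative Kdm3a had -0.24. Kdm5b, an eraser of the promoter mark, had -0.09 on the brightest probe (A_52_P601980, 359 and 365) and -0.88 on the other (A_55_P2065449, 292 and 172), and Kdm5a had 0.34. In each of these 3 genes the further probe was the lower one in diabetic cells. Over all 15 eraser probes with a value, 9 were higher and 6 were lower, and the median was 0.34.

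Probes of 1 gene often disagreed. Of the 15 listed genes with several probes that had a value, 11 had log2 ratios of opposite sign (73.3%), against 1892 of 3846 genes on the whole array (49.2%). In 6 of the 15 (40.0%) the probes were more than 2-fold apart, against 40.2% on the whole array. Counting any probe rather than the brightest, 7 genes had a probe at least 2-fold higher (the 5 above with Nsd1 and Suv39h2) and 6 had a probe at least 2-fold lower (Jarid2, Ring1, Phc1, Ezh1, Setd1b and Kdm3b). These were 16.7% and 14.3% of the 42 genes, against 14.6% and 13.5% of all named genes counted by any probe. At the 4-fold limit these were 3 genes on the higher side, Pcgf1, Ash1l and Suv39h2, and 1 on the lower side, Setd1b, or 7.14% and 2.38%, against 3.80% and 3.53% of all named genes. No gene had probes past 2-fold in both directions.

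Brightness also went with the size of the differences. In the dimmest group, which also took nearly all probes with a bound, 6 of 10 probes of the list were past 2-fold in either direction, against 31.3% of all probes. In the middle group 4 of 20 (20%) passed it, against 24.05% of all probes, and in the brightest group 5 of 31 (16.1%), against 7.37%. Those 5 bright probes belonged to Ash1l, Jarid2, Kdm4a, Ezh1 and Nsd1.

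**Figure D3:**
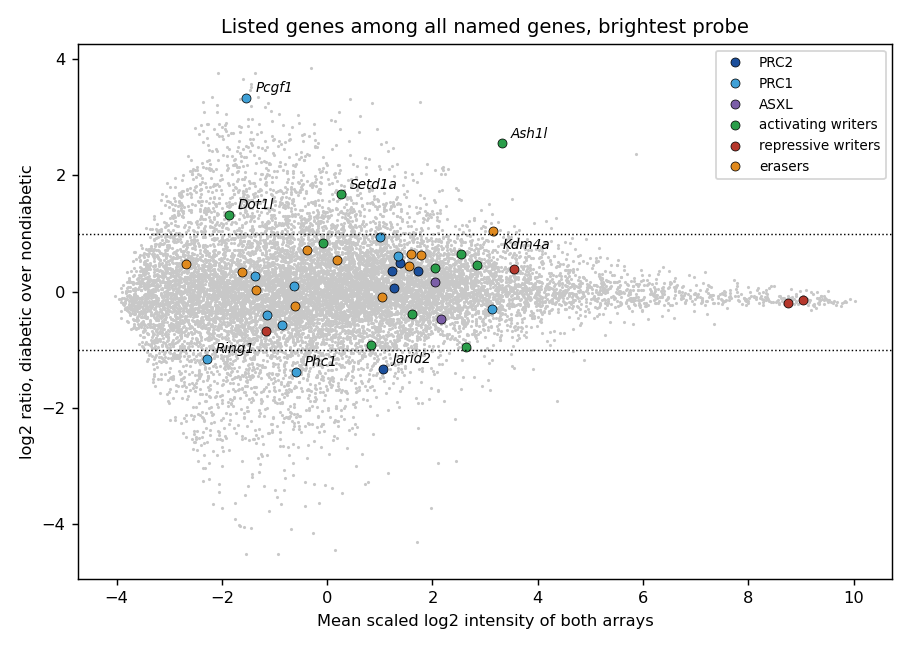
Log2 ratio (diabetic over nondiabetic) against the mean scaled log2 intensity of both arrays, 1 point per gene by its brightest probe, for genes detected on both arrays. Grey points are all named genes, coloured points the listed genes by group, and dotted lines mark 2-fold. The grey cloud narrows to the right, and Ash1l (2.55) stands above it at high intensity while Pcgf1 (3.34) and Dot1l (1.32) lie at low intensity.

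The other genes of the same pathways, 46 in all and 45 with a probe, were read from a further list. Of the 43 with a ratio or bound, 26 were higher and 17 were lower, with a median of 0.16, and past 2-fold were 5 on the higher side (11.6%, against 11.0% of all named genes) and 1 on the lower (2.33%, against 10.1%). Pcgf3, which defines another variant PRC1, had intensities of 27.0 and 101.9 (A_52_P373846, log2 ratio 1.80). Yaf2, a subunit of variant PRC1, had 91.0 and 239 (A_51_P292754, log2 ratio 1.28). The Polycomb-related reader L3mbtl2 had 18.7 and 7.77 (A_51_P245393), was not well above background in diabetic cells and was at least 2.02-fold lower. The other genes of PRC1 were counted together with those of the deubiquitinase that opposes it, Bap1 (-0.58) and Asxl3. This set had 5 higher, 5 lower and a median of 0.04.

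Cofactors of PRC2 had 5 of 6 genes higher, a median of 0.43 and none past 2-fold. The other erasers, with the cofactor Rcor1 counted among them, were again mostly higher, with a median of 0.50. Higher were 8 of 9 (88.9%, against 51.2% of all named genes). Of these 9, 3 were at least 2-fold higher (33.3%, against 11.0% of all named genes) and none was 2-fold lower. Past 2-fold among them were Rcor1, the scaffold of the CoREST complex, with 112 and 358 (A_52_P535052, log2 ratio 1.56), Kdm7a with 139.5 and 343 (A_55_P1975065, log2 ratio 1.18) and Kdm1b with 142 and 328 (A_55_P2096204, log2 ratio 1.09). Unlike the listed activating writers, the other genes of that kind, among them shared subunits of the MLL complexes and the enzymes Nsd2 and Nsd3, had 4 higher, 6 lower and a median of -0.14. The other repressive genes had 4 higher and 4 lower, with a median of 0.17. Setdb2 had no probe, and Asxl3 and Kdm4d had no ratio.

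**Figure D4:**
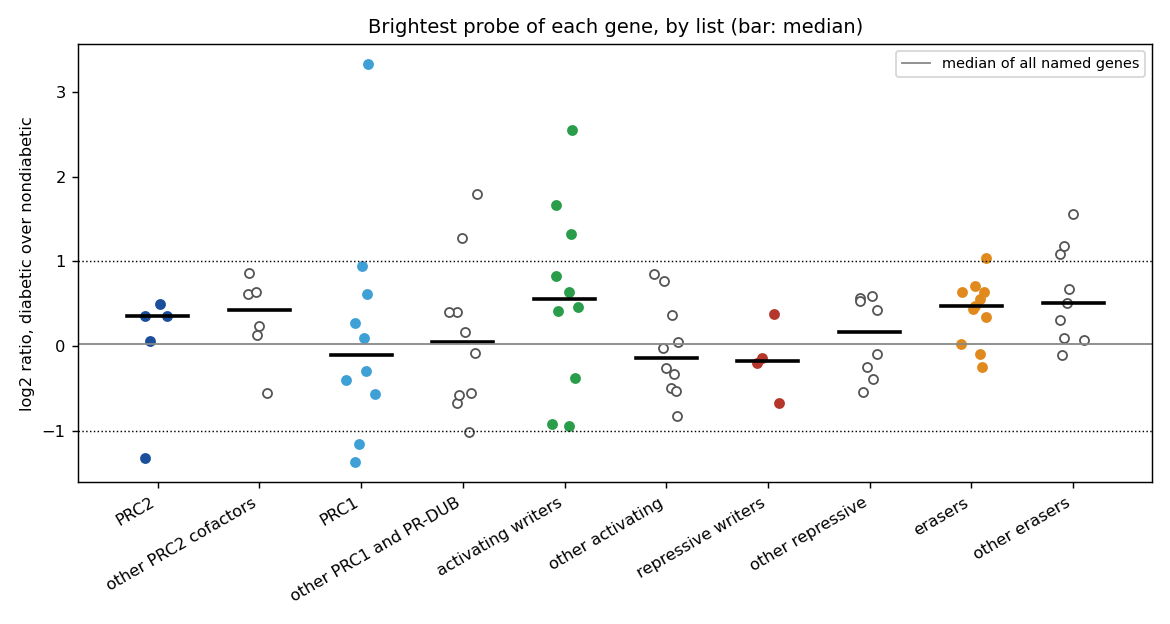
Log2 ratio (diabetic over nondiabetic) of the brightest probe of each gene, with 1 point per gene, filled for the listed genes and open for the other genes of the same pathway. Thick bars are medians (0.48 for the listed and 0.50 for the other erasers with Rcor1, 0.55 and -0.14 for the activating writers), dotted lines mark 2-fold and the thin line is the median of all named genes (0.02).

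Of 8 genes known as targets of these complexes, the cell cycle inhibitors Cdkn2a (2.32 and 5.03) and Cdkn2b (2.45 and 7.07), classic genes silenced by Polycomb, were well above background on neither array. Hoxa10 had intensities of 92.9 and 248 (A_55_P2164348), a log2 ratio of 1.30, and Mecom, a stem cell transcription factor, had 182.5 and 86.2 (A_51_P482148), a log2 ratio of -1.20. The other 4 stayed within 2-fold, with Hoxa9 at 0.64, Meis1 at 0.28, Hoxa5 at 0.07 and Hoxa7 at -0.40. Of the 6 targets with a ratio, 1 was at least 2-fold higher (16.7%, against 11.0% of all named genes). Likewise 1 was at least 2-fold lower (16.7%, against 10.1%). Targets of the same complexes thus lay on both sides.

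Markers of the sort and of other cells were read beside these values. Kit, the c-kit gene of the gate, had 4635 and 4735 (log2 ratio -0.09), and Ly6a, which encodes Sca-1, had 475 and 701 (log2 ratio 0.44). Both gate genes were thus detected in both conditions. Together with Cd34, Flt3, Cd48 and Slamf1, which were not used in the sort, these 6 genes summed to 10316 and 11959, most of it from Kit and Cd34. Slamf1, the only one of these 6 genes past 2-fold, had 5.29 and 28.7, was detected in diabetic cells only and was at least 2.59-fold higher there. The 5 erythroid markers were all detected on both arrays and their summed intensity was 3106 in nondiabetic and 7247 in diabetic cells, most of it from the globin genes Hba-a1 and Hbb-bt. Of these 5, 3 were higher, Hba-a1 (log2 ratio 1.21) and Slc4a1 (1.98) past 2-fold and Hbb-bt at 0.75, and 2 were lower, Klf1 at -0.30 and Epor at -0.20. For granulocyte and monocyte markers, 6 of the 7 with a probe were detected on both arrays, and the sum was 38834 and 38261, most of it from Itgam (34686 and 35189, log2 ratio -0.10). Of these 6, 5 were lower and 1 was higher, with a median of -0.33 and 0 past 2-fold, and Mpo was at -0.68, Lyz2 at -0.63 and Ctsg at -0.56. The B cell sum was 748 and 1110 with 5 of 6 detected, most of it from Vpreb1 (535 and 811, log2 ratio 0.48). Of these 5, 4 were higher, with Cd79a past 2-fold (log2 ratio 1.51), and Cd79b was lower (-0.39). T and NK cell markers summed to 4561 and 3819, most of it from Nkg7 (3291 and 2583, log2 ratio -0.47). Of these 6, 5 were detected in nondiabetic and 3 in diabetic cells, and all 5 with a value were lower. Cd3d and Cd3g were not well above background in diabetic cells and were each at least 2.74-fold lower there (2 of 5, or 40%, against 10.1% of all named genes). The stroma and endothelium sum was 1037 and 1813, with 3 of 6 detected on each array. Kdr held most of the nondiabetic sum (844 and 848, log2 ratio -0.11) and Pecam1 was past 2-fold (162 and 936, log2 ratio 2.41), while Cdh5 and Col1a1 were not well above background. The proliferation genes summed to 7579 and 8116. Of these 6 genes, 2 were higher and 4 were lower, with a median of -0.06. Ccnb1 was past 2-fold (log2 ratio 1.94), while Cdk1 was at -0.61, Top2a at -0.26, Mki67 at -0.12 and Birc5 at -0.01. The part of these markers in the differences above was not tested, and in bulk RNA fewer cells of a type and less RNA per cell cannot be told apart.

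Of the ways of processing the arrays, the background correction and the choice of probe changed most for the listed genes. Under normexp, Dot1l, Ring1 and Phc1 no longer reached 2-fold and Pcgf1 did. Under it Ash1l had 2.55, Setd1a 1.26, Kdm4a 1.01 and Jarid2 -1.02. With the mean over a gene's probes in place of the brightest probe, Setd1b reached -2.50 and Suv39h2 1.23, and Ezh1 changed sign to -0.64, Nsd1 to 0.33 and Kdm3b to -0.50.

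**Figure D5:**
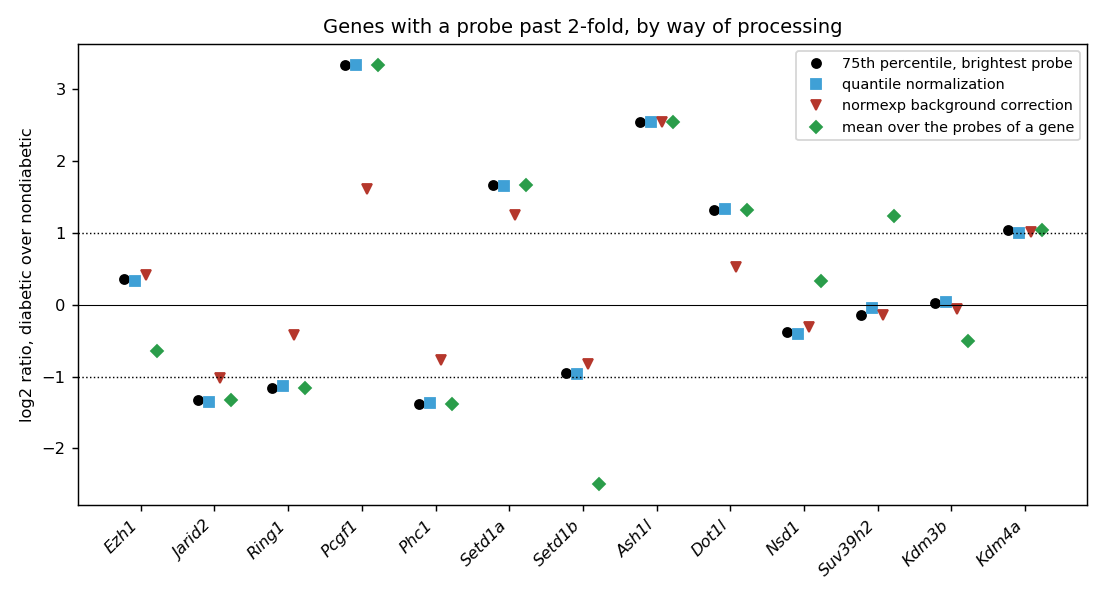
Log2 ratio (diabetic over nondiabetic) of the 13 listed genes with any probe past 2-fold, under 4 ways of processing: scaling to the 75th percentile with the brightest probe (black), quantile normalization (blue), normexp background correction (red) and the mean over the probes of a gene (green). Quantile normalization stays next to the first, normexp draws dim genes such as Pcgf1 (1.62) towards 0, and the mean over probes moves Setd1b to -2.50.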

How the data were processed

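LSK cells were sorted by FACS from bone marrow stained for lineage markers, c-kit and Sca-1, and RNA was extracted with an RNeasy kit, amplified with the Ovation Pico WTA system and labelled with Cy3. For each array the authors deposited spot intensity values from Agilent Feature Extraction 11.5.1.1, which had subtracted background within the array, and they also deposited a table of processed intensities, which proved to be the scanner values times 1 constant per array (log2 factors of 3.48 and 3.35). No normalization between arrays is given in the sources used here. The grid refers to mouse build mm9, and no probe coordinates were used.

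From the log2 intensities the 75th percentile of all 59305 non-control spots was subtracted in each array (168 nondiabetic, 182 diabetic). Spots marked as outliers by the deposited flags on either array were dropped, which left 58991, and spots of a probe were averaged. Where a probe was detected in a single condition its ratio is a bound, taken against the higher of its own dim value and the lowest detected intensity (10.2 and 10.1), and a probe detected on neither has no ratio. Probes were named through transcript identifiers without versions, which named 28319 of 55661 probes. Well above background were 62.6% of probes on the nondiabetic and 63.9% on the diabetic array.

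The number of arrays limits the precision, and no test was made with 1 array per condition. The listed genes, the other pathway genes and the markers were chosen with earlier results of these data known. Listed genes were named with both intensities where a probe was past 2-fold, where probes differed by over 2-fold or where the gene encodes a core subunit, and other pathway genes where past 2-fold. A further marker gene is not reported here. The alternatives were normexp (offset 50) of the median spot intensity over the median local background, quantile normalization, median centring, loess, no filter on dim probes, only probes detected on both arrays, the mean over probes, the deposited table, and a floor at the lowest detected intensity. The steps were tested on simulated data. Python 3.11.15 with numpy 2.4.6 and pandas 2.3.3, and R 4.3.3 with limma 3.58.1 were used.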

Additional observations from a re-analysis of the deposited data

How the results depend on the processing

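The 8 genes past 2-fold by the brightest probe were the same 8 under quantile normalization, median centring, loess, either change of the filter, the floor and the deposited table. Under normexp 5 of the 8 remained and Ring1, Phc1 and Dot1l were lost, which left 1 gene at least 2-fold lower in place of 3, with 4 probes past 2-fold on the higher side and 3 on the lower in place of 7 and 8, and a median over the listed genes of 0.19 in place of 0.35. The cause was not tested. With the mean over probes all 8 remained and Setd1b and Suv39h2 were added, and the group medians became 0.07 for PRC2, 0.17 for the repressive writers and 0.34 for the erasers. Of the 42 single genes, the ratio moved by more than the spot SD in 16 under normexp and 15 with the mean over probes. It moved in 2 under loess and 2 under quantile normalization, Ehmt1 and Suv39h2 each time, and in 0 under the others. The median of all named genes was 0.02, and -0.09 without a filter and -0.14 with the floor. Normexp was run on the median spot intensity. No replicate could be left out. No paired analysis was possible because there is a single array on each side. Spots of dim probes differed more than those of bright probes, and differences between mice, sorts and amplifications were not measured.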
